A study of Mus musculus with 12 samples.

Results

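The 10 genes described here encode enzymes that make or break down glycine and that link it to threonine and serine. They were chosen by symbol, and all 10 were found among the 12516 genes of the deposited expression table. RNA was sequenced from germ cells of single female mouse embryos at embryonic day 13.5, sorted as cells positive for Oct4. The genotype of all 12 was Gulo-/-, on a background of C57BL/6, so that they lacked the last enzyme of vitamin C synthesis. The diets differed: 6 embryos carried the treatment label Vitamin C supplied and 6 the label Vitamin C withdrawn, which refers to the mother's intake during gestation. Since the supplied controls carry the Gulo deletion too, no embryo able to make its own vitamin C was compared. The genes were selected with results of the withdrawn against supplied comparison in view, so their changes are given as a description and are no independent evidence of a response.

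The glycine cleavage system is a mitochondrial complex that splits glycine into carbon dioxide, ammonia and a carbon unit carried by folate. Gldc (the P protein) decarboxylates glycine, Gcsh (the H protein) carries the remainder on a lipoyl arm, Amt (the T protein) releases ammonia and passes the carbon unit to folate, and Dld (the L protein) reoxidizes the arm. Glycine reaches it from serine, through the serine hydroxymethyltransferases Shmt1 in the cytosol and Shmt2 in mitochondria, and from threonine, through Tdh and Gcat. Phgdh and Psat1 catalyse early steps of serine synthesis from a glycolytic intermediate. In the mouse, Tdh is strongly expressed in embryonic stem cells, which depend on threonine.

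In withdrawn embryos, Gldc, Amt and Gcsh rose, as did Tdh and Shmt1. Dld, Shmt2, Gcat, Phgdh and Psat1 did not pass the test. Thus 5 of the 10 genes were called higher and 0 lower, and the largest change was that of Amt, 1.52-fold on the deposited scale. Over the whole table, 12432 genes were tested, of which 6.22% passed as higher and 7.75% as lower; because the 10 genes were chosen with this comparison known, nothing is read from the contrast of these shares. A gene was called at a Benjamini-Hochberg adjusted p below 0.05 in a limma fit across all genes, and every adjusted p of a single gene below is from that fit. The count of 5 was 3 when supplied replicate 5 or 6 or withdrawn replicate 4 was left out, 2 without the embryos numbered 1 in their titles and 0 without those numbered 4 (4 at an unadjusted p below 0.05). Where embryos alike in diet and title number were joined by a random effect it was 3 (Amt, Gldc and Gcsh), and with such embryos averaged it was 2 (Amt and Gldc). The median log2 fold change, withdrawn minus supplied, was 0.15 for the 10 genes and -0.01 for all genes. The 2 groups did not overlap for 3 of the 10 genes, all higher in withdrawn embryos, against 2.15% of all genes in that direction and 4.49% in either.

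**Figure D1:**
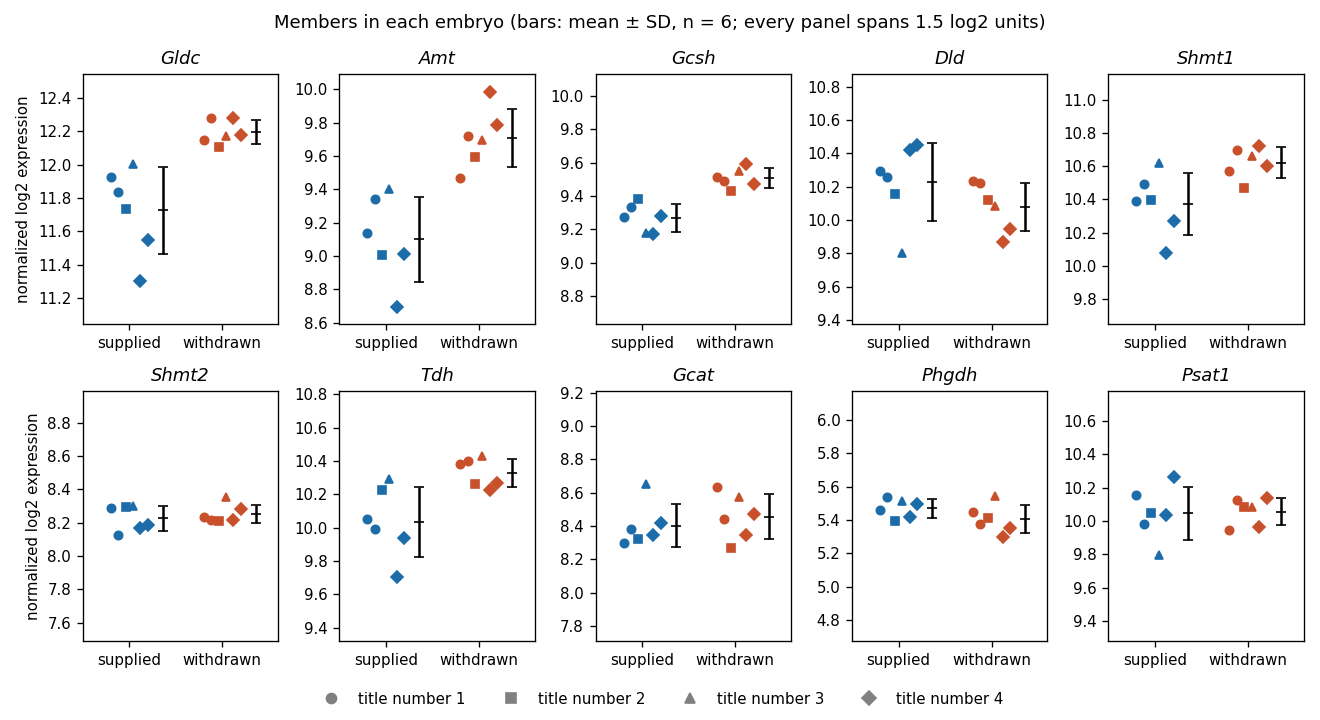
Normalized log2 expression (vertical axis) of each of the 10 genes in the supplied (blue) and withdrawn (red) embryos, with the symbol showing the number in the sample title and bars showing the mean ± SD (n = 6). The groups are separate for Gldc, Amt and Gcsh, and supplied embryos of title number 4 are the lowest for Gldc.

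The libraries fit their label. The germ cell markers Dazl (13.20 in supplied and 12.77 in withdrawn embryos) and Pou5f1, which encodes Oct4 (12.55 and 12.999), were far above the median gene at 8.13. All 13 supporting cell markers measured lay below the median gene, as did 5 of 6 mesenchymal, 6 of 7 endothelial, 6 of 6 macrophage and 4 of 6 mesonephric markers, and 0 of 9 erythroid markers were listed. Withdrawal went with a call upward for 5 of the 10 germ cell markers and downward for 3, where 14.0% of all genes were called in either direction. Pou5f1 was higher (log2 fold change 0.45, adjusted p = 0.00505), and Ddx4 (-0.34, adjusted p = 0.0362) and Mael (-0.77, adjusted p = 0.00209, groups separate) were lower. Mael, the marker that changed most, was picked out after its values were seen. The call was lost in 15 of 29 alternative analyses for Ddx4 and in 3 of 29 for Pou5f1. With embryos alike in diet and title number averaged, neither was called by limma (adjusted p = 0.163 for Ddx4 and 0.0534 for Pou5f1). Without title number 4, Ddx4 was at -0.19 (adjusted p = 0.398) and Pou5f1 at 0.26 (adjusted p = 0.186). The summed level of the mesenchymal markers, on the log2 scale, ran from 9.90 to 10.29 in supplied and from 9.56 to 9.86 in withdrawn embryos. Fbln1, the highest of these markers, was called lower (-0.29, adjusted p = 0.0261). The log2 fold change was negative for 12 of 13 supporting cell markers (0 called) and 6 of 6 mesenchymal markers (1 called). It was negative for 4 of 7 endothelial, 4 of 6 macrophage and 2 of 6 mesonephric markers, and for 6638 of all 12432 genes. Of 10 mitotic markers, 4 were called higher and 0 lower; Mki67 was at 0.13 (adjusted p = 0.260). With the mean of 38 somatic markers as a covariate the changes of the called genes were as large (0.66 for Amt, 0.48 for Gldc, 0.27 for Gcsh, 0.33 for Tdh and 0.28 for Shmt1), but Tdh (adjusted p = 0.0580) and Shmt1 (adjusted p = 0.0755) were no longer called. The 38 include Pecam1 (11.18 in supplied and 11.38 in withdrawn embryos), Epcam (11.02 and 11.24) and Cdh1 (10.63 and 10.69), far above the median gene. Epcam was called higher in withdrawn embryos (0.22, adjusted p = 0.0290). Whether the RNA of these markers came from somatic cells was not tested. The covariate averages them with markers that were lower in withdrawn embryos, so it is no sure measure of such cells. The part of the germ cell and mitotic markers in the changes described here was not tested. In bulk RNA, fewer cells of a type and less RNA per cell cannot be told apart.

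Among the cleavage enzymes, Gldc had the highest level per transcript length. Its values were 11.93, 11.84, 11.74, 12.005, 11.30 and 11.55 in supplied replicates 1 to 6 and 12.15, 12.28, 12.11, 12.17, 12.28 and 12.18 in withdrawn replicates 1 to 6. Every withdrawn embryo was above every supplied one, and the lowest values belonged to supplied replicates 5 and 6. The mean rose from 11.73 ± 0.26 to 12.20 ± 0.07 (SD, n = 6 each), which is a log2 difference of 0.47 (adjusted p = 0.00318, SE 0.09), or 1.39-fold. The SD of the supplied embryos was 3.67 times that of the withdrawn ones. Thus withdrawn embryos sat in a narrow band just above the supplied range, with a gap of 0.10 between the groups.

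Amt, the aminomethyltransferase, moved the most. Supplied replicates 1 to 6 had values of 9.14, 9.34, 9.01, 9.40, 8.70 and 9.01, and withdrawn replicates 1 to 6 had 9.47, 9.72, 9.59, 9.70, 9.98 and 9.79. The groups did not overlap, and supplied replicate 5 was again the lowest embryo. The mean went from 9.10 ± 0.26 to 9.71 ± 0.18 (SD, n = 6 each), which is a log2 difference of 0.61 (adjusted p = 0.00203, SE 0.10). By absolute fold change Amt ranked 39 among the 12432 genes, Gldc 145 and Gcsh 1490.

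Gcsh, the lipoyl carrier, changed less but was also separate between the diets. Its supplied values were 9.27, 9.33, 9.38, 9.18, 9.17 and 9.28, and its withdrawn values 9.52, 9.49, 9.43, 9.55, 9.59 and 9.47. The mean went from 9.27 ± 0.09 to 9.51 ± 0.06 (log2 fold change 0.24, adjusted p = 0.0169, SE 0.06), which is 1.18-fold; with embryos alike in diet and title number averaged, the call was lost (adjusted p = 0.0904). As for Gldc and Amt, supplied replicate 5 was the lowest of all 12 embryos, whereas supplied replicate 4, the highest supplied embryo for those genes, was the next lowest for Gcsh.

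Dld, which the cleavage system shares with the pyruvate, 2-oxoglutarate and branched-chain dehydrogenases, did not pass. It had 10.29, 10.25, 10.16, 9.80, 10.42 and 10.45 in supplied and 10.23, 10.22, 10.12, 10.08, 9.87 and 9.95 in withdrawn embryos. The groups overlapped, with supplied replicate 4 the lowest of all 12. The log2 fold change was -0.15 (adjusted p = 0.293, SE 0.09). Without supplied replicate 4 it was -0.23 and called lower (adjusted p = 0.0390), and without title number 4 it was 0.04 (adjusted p = 0.878). The difference between Dld and the other cleavage enzymes was not tested.

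**Figure D2:**
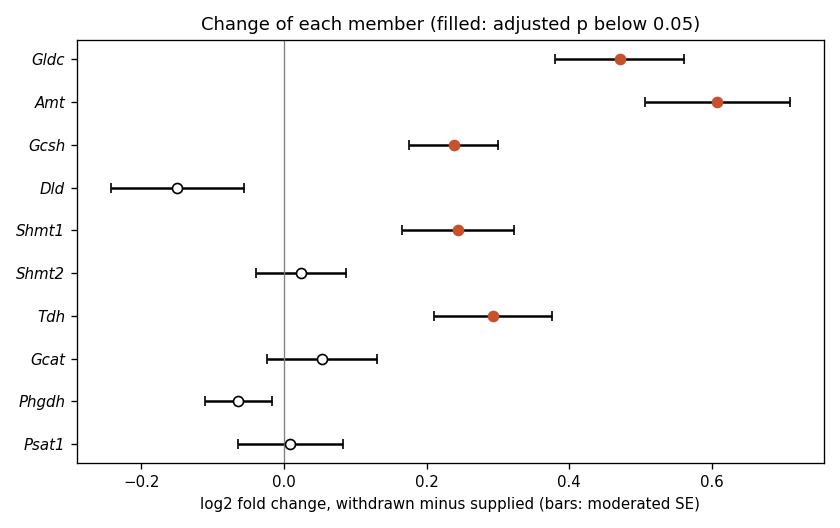
Log2 fold change of each gene, withdrawn minus supplied (horizontal axis), with moderated SE bars and filled points for an adjusted p below 0.05. Amt lies at 0.61, Gldc at 0.47, and Dld at -0.15.

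Of the threonine pathway, Tdh, the dehydrogenase that starts threonine breakdown, rose. Its values were 10.06, 9.99, 10.23, 10.29, 9.71 and 9.94 in supplied and 10.38, 10.40, 10.26, 10.43, 10.23 and 10.27 in withdrawn embryos. The groups overlapped: 3 of the 6 withdrawn embryos were above the highest supplied one, and all 6 were above the supplied mean. The mean went from 10.04 ± 0.21 to 10.33 ± 0.09 (log2 fold change 0.29, adjusted p = 0.0226, SE 0.08). This call was lost in 10 of 29 alternative analyses, among them the random effect (adjusted p = 0.0569) and the averaging (adjusted p = 0.150) of embryos alike in diet and title number. Gcat, the ligase that turns the product of Tdh into glycine and acetyl-CoA, had 8.30, 8.38, 8.32, 8.65, 8.35 and 8.42 in supplied and 8.63, 8.44, 8.27, 8.57, 8.35 and 8.47 in withdrawn embryos. Its ranges covered each other almost entirely, and its log2 fold change was 0.05 (adjusted p = 0.680, SE 0.08). Whether Tdh and Gcat differ in response was not tested.

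The serine hydroxymethyltransferases exchange serine and glycine with folate in different compartments. Cytosolic Shmt1 had 10.39, 10.49, 10.40, 10.62, 10.08 and 10.27 in supplied and 10.57, 10.69, 10.47, 10.66, 10.72 and 10.60 in withdrawn embryos. All 6 withdrawn embryos were above the supplied mean, 3 of them above the highest supplied embryo. The mean went from 10.37 ± 0.19 to 10.62 ± 0.09 (log2 fold change 0.24, adjusted p = 0.0402, SE 0.08). Its call was the least stable of the 5 and was lost in 18 of 29 alternative analyses, with adjusted p values from 0.0104 to 0.440. Mitochondrial Shmt2 ranged from 8.13 to 8.30 in supplied and from 8.21 to 8.35 in withdrawn embryos, or a change of 0.02 (adjusted p = 0.833, SE 0.06). The difference between Shmt1 and Shmt2 was not tested.

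The sequences before the start sites are shown for the called genes Gldc, Amt, Gcsh and Shmt1, the 4 with a sequence among the 5 that rose. Each runs 5′ to 3′ from 200 to 61 bases before the RefSeq start (build GRCm38.p6, not the mm9 build of the expression data), which leaves out annotated untranslated sequence. Capitals mark the GC box, GGGCGG, and the CCAAT box, CCAAT, on either strand.
Amt, chr9:108296705-108296844, plus strand: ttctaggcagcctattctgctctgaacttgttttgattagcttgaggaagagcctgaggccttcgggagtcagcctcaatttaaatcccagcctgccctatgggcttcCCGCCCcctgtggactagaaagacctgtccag
Gldc, chr19:30175502-30175641, minus strand: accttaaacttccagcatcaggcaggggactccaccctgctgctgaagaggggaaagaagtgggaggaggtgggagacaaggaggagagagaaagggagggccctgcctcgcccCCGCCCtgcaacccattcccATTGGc
Gcsh, chr8:116993559-116993698, minus strand: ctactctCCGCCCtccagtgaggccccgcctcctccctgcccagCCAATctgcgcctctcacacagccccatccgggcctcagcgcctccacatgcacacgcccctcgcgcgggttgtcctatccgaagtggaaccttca
Shmt1, chr11:60811326-60811465, minus strand: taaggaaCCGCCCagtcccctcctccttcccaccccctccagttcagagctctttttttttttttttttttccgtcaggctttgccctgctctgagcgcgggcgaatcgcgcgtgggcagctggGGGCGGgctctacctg

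All 4 stretches hold a GC box, as does that of Gcat, so 5 of the 9 genes with a sequence have one in this window, against 20.4% of 32851 windows of the same length in the RefSeq table. Shmt1 has 2, and the one in Amt lies 92 to 87 bases before the start. A CCAAT box occurs in Gldc and Gcsh and in the uncalled Dld and Phgdh, 4 of 9, against 21.6% of all windows. The E-box CACGTG, the amino acid response core TGATGNAA and the octamer ATGCAAAT were found in 0 of the 9, against 3.24%, 1.96% and 1.02% of windows. The motifs do not overlap one another in the stretches printed. CpG pairs numbered 2 in Amt and Gldc, 10 in Gcsh and 9 in Shmt1, with a median of 3 over all windows. The shares over all windows are counted per start site and are not limited to genes of the expression table, whereas the 9 are genes measured here. The sets are therefore unlike, and nothing is read from the contrast of these shares. A match is a description of letters and not of a bound site.

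The serine synthesis genes stayed within the spread between embryos. Psat1, the phosphoserine aminotransferase, ranged from 9.79 to 10.26 in supplied and from 9.94 to 10.14 in withdrawn embryos (log2 fold change 0.01, adjusted p = 0.949, SE 0.07). Phgdh, the dehydrogenase that opens the pathway, ranged from 5.40 to 5.54 and from 5.30 to 5.55 (log2 fold change -0.06, adjusted p = 0.380, SE 0.05). Its mean was 5.47 in supplied embryos, and per transcript length it lay above 21.7% of the genes with a length. In the reference transcripts (GENCODE M21), 63.1% of the 50-base words of Phgdh also occur, on either strand, in transcripts of 23 other annotated genes. Its reads may therefore have been discarded or divided among copies, and its level is uncertain. The same share was 15.0% for Tdh, all with the gene Gm13929, and 4.81% for Shmt1, all with Smcr8. It was at most 2.08% for the remaining 7 genes. The count does not tell copies elsewhere from genes that overlap at the same place, so the shares may differ in meaning.

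Levels can be compared between genes only per transcript length. The labels do not say whether the deposited values were already scaled by length, and they were taken here as not scaled. On the deposited log2 scale less the log2 of transcript length in kilobases, supplied embryos had Gldc at 9.81, Tdh at 9.12, Dld at 8.88, Shmt1 at 8.86, Gcsh at 8.74, Psat1 at 8.66, Amt at 8.04, Gcat at 7.16, Shmt2 at 7.03 and Phgdh at 4.55. The neighbours Dld, Shmt1, Gcsh and Psat1 in this order, and likewise Gcat and Shmt2, lay no farther apart than the larger SD of each pair. That SD is between embryos and does not measure error between genes. Gldc lay above 93.6% of the 10847 genes with a length, and cytosolic Shmt1 was well above mitochondrial Shmt2. The lengths are those of the longest coding transcript in the reference, and which isoform was expressed was not analysed here.

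The numbers 1 to 4 in the sample titles occur in both diets, and the labels do not say what they stand for. All 5 called genes had a positive difference within each of the 4 numbers, but the size varied. For Amt the difference was 0.35, 0.58, 0.30 and 1.03 in numbers 1 to 4. For Gldc it was 0.33, 0.37, 0.17 and 0.81, and for Shmt1 0.19, 0.07, 0.04 and 0.49. Number 4 therefore held the largest difference for these 3 genes and for Tdh (0.43), while for Gcsh it was number 3 (0.37). Dld was at -0.05, -0.04, 0.28 and -0.52, so number 4 alone gave a large negative value. Without the 4 embryos of number 4, limma called 0 of the 10 genes (4 had an unadjusted p below 0.05). Amt was then at 0.40 (adjusted p = 0.0532) and Gldc at 0.30 (adjusted p = 0.0708), in a fit that called 49 genes in all. Numbers 2 and 3 have 1 embryo in each diet, and no test was made within a number.

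**Figure D3:**
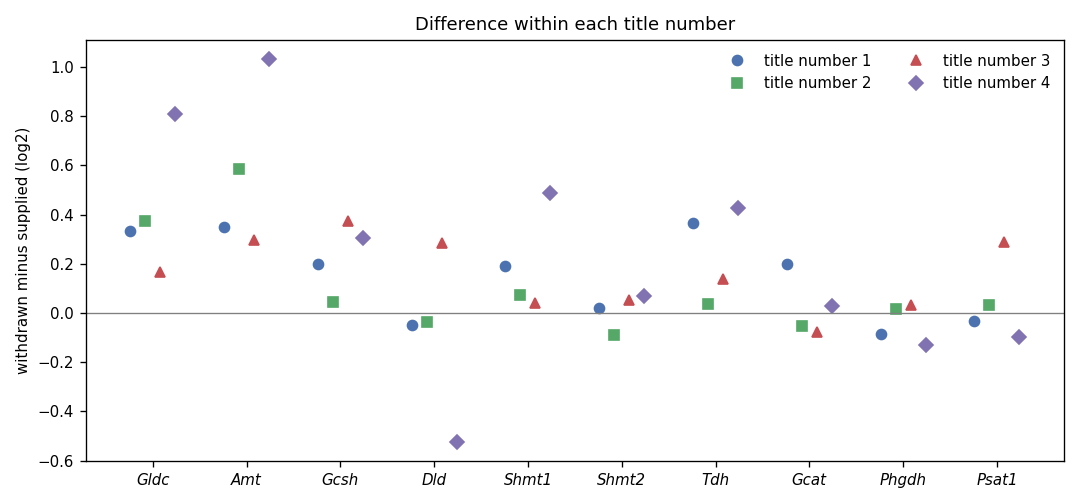
Difference between withdrawn and supplied embryos (log2, vertical axis) of each gene within title numbers 1 to 4, each point a difference of means over 1 or 2 embryos per diet. Number 4 gives 1.03 for Amt and -0.52 for Dld.

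The genes were chosen with the diet comparison known, and a call there depends on the spread within each diet. Variation among embryos of the same diet is thus not independent of the choice, and its correlations are given as a description. Each value was taken as a deviation from its diet mean, and all 45 pairs of the 10 genes were compared over the 12 embryos by permutation within diet (100000 resamples, two-sided, Benjamini-Hochberg adjustment over the 45 pairs). Of these, 3 pairs passed, all among Gldc, Amt and Shmt1. How often other pairs of genes in the table reach such values was not computed, so the count is not read as particular to these genes. Outside the 10, L1td1 was closer to Gldc (r = 0.98) than Shmt1 was (r = 0.92). Likewise Tars was closer to Amt (r = 0.95) than Shmt1 was (r = 0.88). L1td1 and Tars were picked as the closest of all genes tested. Gldc and Shmt1 had Pearson's r = 0.92 (permutation p = 0.000270, adjusted 0.0121) and Spearman's rho = 0.86 (permutation p = 0.00143, adjusted 0.0322). Without the 2 embryos farthest from the median of Gldc, r was 0.75. It was 0.94 over the supplied and 0.91 over the withdrawn embryos alone. Embryos high for the glycine decarboxylase thus tended to be high also for the cytosolic hydroxymethyltransferase. Withdrawn embryos differed little in Gldc (SD 0.07), and no p value was computed for a single diet.

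Amt and Shmt1 had r = 0.88 (permutation p = 0.00101, adjusted 0.0227) and rho = 0.83 (permutation p = 0.00327, adjusted 0.0490), with r = 0.73 without the 2 embryos farthest from the median of Amt. Amt and Gldc had r = 0.83 (permutation p = 0.00247, adjusted 0.0370) and rho = 0.84 (permutation p = 0.00122, adjusted 0.0322), with r = 0.58 without those 2 embryos. Over the supplied and the withdrawn embryos alone, r was 0.96 and 0.69 for Amt and Shmt1, and 0.90 and 0.71 for Amt and Gldc. Amt and Dld ran in opposite directions, with r = -0.74 (permutation p = 0.0146) and rho = -0.71 (permutation p = 0.0193), and did not pass over the 45 pairs (adjusted 0.165 and 0.174). Gldc and Tdh had r = 0.74 (permutation p = 0.0459, adjusted 0.258) and rho = 0.50 (permutation p = 0.153, adjusted 0.531), and r was 0.17 without the 2 embryos farthest from the median of Gldc, so that relation rests on those embryos. For Gldc and Tdh, r was 0.83 over the supplied and -0.03 over the withdrawn embryos alone. These p values treat embryos of 1 diet as exchangeable; embryos that share a title number may be related.

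**Figure D4:**
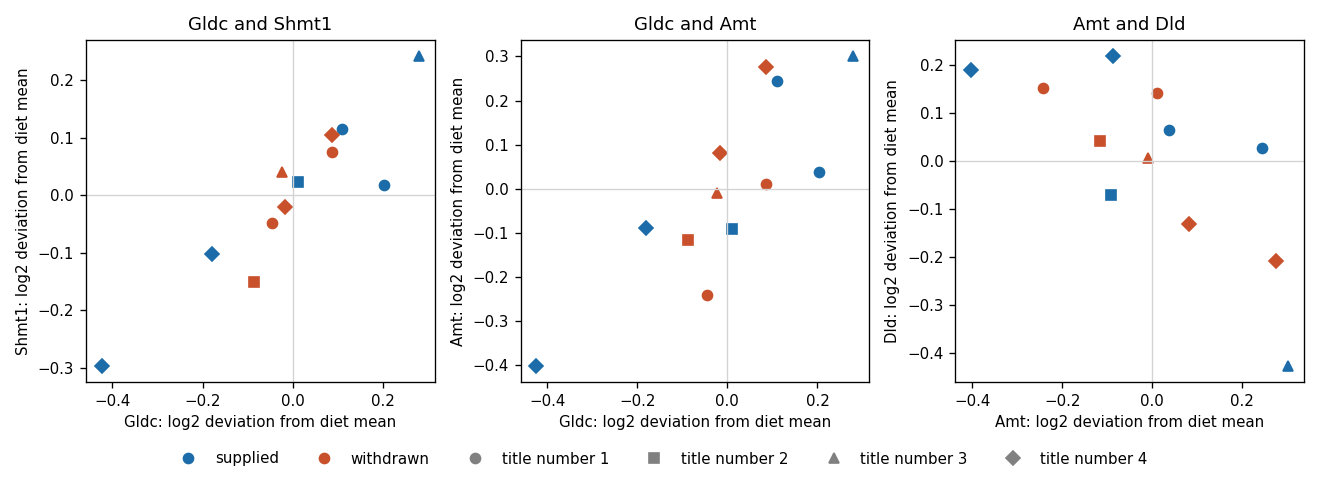
Deviation of each embryo from its diet mean (log2, both axes) for Gldc and Shmt1, Gldc and Amt, and Amt and Dld, coloured by diet and marked by title number. The first pairs rise together (r = 0.92 and 0.83) and the last runs in the opposite direction (r = -0.74).

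The genes of the table most like Amt and Gldc were found by the same deviations, as a description over 12 embryos that share library preparation and scaling. For Gldc they were L1td1 (r = 0.98), an RNA-binding protein of pluripotent cells, Mybbp1a (r = 0.97) and Trim6 (r = 0.96). L1td1 had a log2 fold change of 0.72, Mybbp1a of 0.49 and Trim6 of 0.35, all called (adjusted p = 0.00280, 0.00310 and 0.0226). For Amt they were Tars (r = 0.95), the threonyl-tRNA synthetase, Eif2s2 (r = 0.94), a subunit of translation initiation factor eIF2, and Atg13 (r = 0.94), an autophagy factor. Eif2s2 (0.39, adjusted p = 0.00353) and Atg13 (0.28, adjusted p = 0.0265) were called higher, and Tars was at 0.08 (adjusted p = 0.468).

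Around the 10 genes, 90 further genes of connected pathways were measured, of which limma called 6 higher and 2 lower (8.89%, against 14.0% of all genes in either direction). Their median log2 fold change was 0.02. In the folate pathway, which takes up the carbon units, Gart and Mthfd1, enzymes of purine synthesis and of folate interconversion, rose by 0.26 (adjusted p = 0.0212) and 0.24 (adjusted p = 0.0371), 2 of 18 genes, with a list median of 0.10. Both calls were lost with the random effect (adjusted p = 0.0505 for Gart and 0.0742 for Mthfd1) and with averaging (0.130 and 0.127). The exact permutation test called 0 of the 18. That test can call only genes whose groups do not overlap, and 0 of the 18 were such genes, so its outcome adds nothing here. Of 12 genes of the methionine cycle, Mtap, which salvages methylthioadenosine, rose by 0.44 (adjusted p = 0.00219, SE 0.08) and Ahcyl2 fell by 0.26 (adjusted p = 0.0172; 0.0721 with averaging). Mtap had values from 8.91 to 9.29 in supplied and from 9.47 to 9.80 in withdrawn embryos, which did not overlap. The list median was -0.05.

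Other glycine enzymes included Chdh, the choline dehydrogenase at the head of the route from choline to glycine, which went from 7.10 to 7.50 (log2 fold change 0.40, adjusted p = 0.00805, SE 0.09) with no overlap and was the 1 called gene of 7. Of 14 transporters of serine and glycine, Slc1a5, a neutral amino acid exchanger, rose by 0.18 (adjusted p = 0.0162) and the glycine transporter Slc6a9 fell by 0.18 (adjusted p = 0.0327); both had low values, near 5.85 and 4.99 in supplied embryos. The call of Slc6a9 was lost with the random effect (adjusted p = 0.0673) and with averaging (0.113), and that of Slc1a5 with averaging (0.0689). Of 20 subunits and regulators of the dehydrogenases that share Dld, Pdk1, which inhibits pyruvate dehydrogenase, rose by 0.30 (adjusted p = 0.0212), and the list median was 0.02. Pdk1 was not called with the random effect (adjusted p = 0.0525), with averaging (0.0887) or after adjustment for the somatic markers (0.23, adjusted p = 0.150). Of 13 genes that make or attach the lipoyl arm, limma called 0 (at an unadjusted p below 0.05 there were 3, and by the exact permutation test 0); the smallest p was that of Oxsm (-0.16, adjusted p = 0.0858). Of 6 remaining genes of serine and threonine metabolism, limma called 0 (0 at an unadjusted p below 0.05, and 0 by the exact permutation test), with Cbs, cystathionine beta-synthase, at 0.20 (adjusted p = 0.236). In these 13 and these 6 genes the groups were separate for 0, so the exact test could call none of them.

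**Figure D5:**
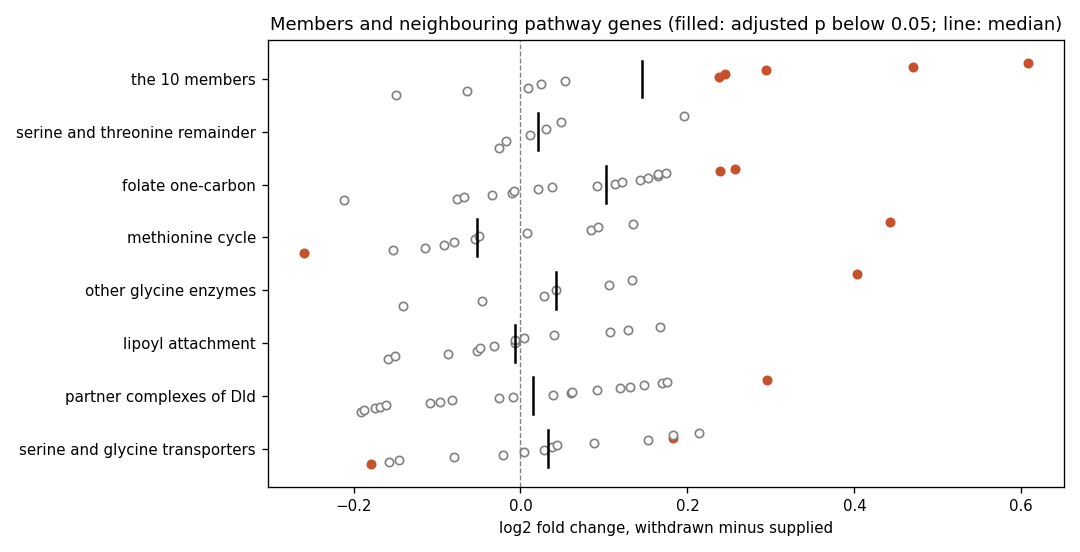
Log2 fold change, withdrawn minus supplied (horizontal axis), of the 10 genes and of 7 lists of connected genes, with filled points for an adjusted p below 0.05 and a line at each median. The median is 0.15 for the 10 genes and between -0.05 and 0.10 for the other lists.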

How the data were processed

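The authors deposited normalized log2 expression values for 12516 genes in 12 libraries. The submitters' processing notes name Trim Galore 0.4.0, FastQC, TopHat2 2.0.13, DESeq2 1.10.1 and build mm9; the counter, annotation and form of the log2 scale are not stated in the labels or the file header. Depth is unknown, so no count test or counting interval is given, and changes of low genes may be understated. The 12432 genes with a mean of at least 3.32 (log2 of 10) were fitted with limma 3.58.1 in R 4.3.3 (variance trend, two-sided, Benjamini-Hochberg over all genes). All 10 members passed this filter. The fit was tested on simulated data with independent noise for each gene and embryo. That test does not cover embryos alike through a shared title number. Members and lists were chosen with earlier results of these data known. Named are the 10 members, up to 4 called genes of each connected list with the smallest p or otherwise the 1 with the smallest p, the 3 genes most correlated with each of the 2 members that changed most, Pou5f1, Ddx4 and Mki67, and the highest gene of marker lists. The series calls embryos biological replicates; 4 combinations of title number and diet hold 2 embryos, which p values treat as independent. Sequences are from RefSeq (GRCm38.p6), which held 9 of the 10 genes; Tdh was not matched. Alternatives changed the filter, scaling, variance model, weights, test, threshold and embryos included.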

Additional observations from a re-analysis of the deposited data

Results flagged for a closer look

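Of the 20 groups formed by 10 genes and 2 diets, 1 held an embryo far from the rest. Supplied replicate 4 was at 8.65 for Gcat, above the next supplied embryo at 8.42. Chance alone marks about 1 in 20 such groups.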

How the results depend on the processing

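The 145 values of the 5 called genes over 29 alternatives were all positive. The 5 calls numbered 3 with a random effect for embryos alike in diet and title number, 2 with those averaged, 3 by the exact permutation test, 3 with the somatic covariate, 2 at an adjusted p below 0.01, 2 without title number 1 and 0 by limma without title number 4 (4 at an unadjusted p below 0.05), and ran from 3 to 6 with 1 embryo left out, 3 without supplied replicate 5 or 6 or withdrawn replicate 4. In the same order, the 8 calls among the other 90 genes numbered 4, 2, 4, 3, 2, 3 and 0 (9 at an unadjusted p below 0.05), and ran from 3 (without supplied replicate 5) to 12 (without supplied replicate 4). The 1737 calls over all genes numbered 886, 298, 558, 611, 444, 729 and 49, and ran from 808 (without supplied replicate 5) to 2315. The exact test can call only genes whose groups do not overlap, and leaving out embryos leaves fewer samples; for the other settings the cause was not tested. Median centring gave 928 higher and 771 lower calls, against 773 and 964. Genes that were not called changed sign as follows: Dld at 0.038 without title number 4, Gcat at -0.018 without title number 1, and Psat1 at -0.013 with quantile normalization, -0.0071 with array weights, -0.047 with the somatic covariate, -0.047 without title number 3, and from -0.042 to 0.052 with 1 embryo left out. With title number as a replicate block, 5 of the 10 genes, 9 of the other genes and 2062 of all genes were called; correlations between the deviations of same-numbered embryos of the 2 diets were mixed (0.27, -0.10, 0.18 and -0.17 for numbers 1 to 4), so the embryos were not treated as paired, and whether the numbers mark a pairing is not known. Depth is unknown, so what it limits cannot be stated.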
